A study of Homo sapiens with 6 samples.

Results

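The SLC25 genes encode the mitochondrial carriers, a family of membrane transporters, and their RNA levels were compared in HK-2 cells with and without the growth factor GDF5. The members were chosen by their symbol, which had to be SLC25A followed by a number and nothing else. This gave 47 genes of the 34157 in the deposited table, and 22 symbols with a suffix, which belong to antisense genes and pseudogenes, were left out. Of the 47, 36 had a mean of at least 1 RPKM (reads scaled for exon length and for the library's total of assigned reads) over all libraries and were tested, and 11 lay below that level. HK-2 is an established human cell line from kidney proximal tubule epithelium. There were 3 control libraries and 3 libraries of cells kept with GDF5 at 100 ng/ml for 48 hours. The controls were untreated by the series design and labelled wild type, and no time is given for them. Nothing in the labels says that replicates were separate cultures, and p-values reflect only how these libraries vary, which may be technical.

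A carrier of this family is a small protein that spans the inner mitochondrial membrane and, in most cases, exchanges a substrate inside for another outside. Through these proteins ATP leaves the matrix, phosphate and ADP enter it, and organic acids, amino acids, iron and cofactors move between the matrix and the cytosol. Kidney tubule cells use much ATP for ion transport, and carriers link that use to oxidative metabolism. GDF5 is a ligand of the bone morphogenetic protein family, and the series title asks about its action on tubular cells in diabetic kidney disease.

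Each library held between 43883430 and 56037704 reads assigned to genes. Genes encoded on mitochondrial DNA took 7.92 to 8.71% of the reads in control libraries and 10.1 to 10.3% in GDF5 libraries, and all RPKM values are shares of a total that includes them. The SD of the log2 difference over genes was 0.142 between GDF5 replicates 2 and 3, 0.174 and 0.175 between either of them and GDF5 replicate 1, 0.168 to 0.181 within control and 0.239 to 0.253 between groups. Epithelial markers were present, with a summed level of 334 to 352 RPKM in control and 283 to 308 RPKM in GDF5 libraries, and EPCAM (limma adjusted p = 8.98e-05), CDH1 (0.00113) and KRT18 (0.0184) fell. The other 2 of the 5 were not called, KRT8 at 68.7 and 71.1 RPKM (0.572) and KRT19 at 125 and 117 RPKM (0.366). Of 7 proximal tubule markers with values, 6 were under 1 RPKM in both groups, among them the endocytic receptor genes LRP2 and CUBN, which were at or near 0. The other, GGT1, was at 2.30 and 1.78 RPKM and fell (limma adjusted p = 0.0417), a call that ended with median-of-ratios scaling (0.0684). Of 3 fibroblast markers LUM was at 73.7 and 69.9 RPKM and DCN at 4.02 and 3.50 RPKM in control and GDF5 cells, neither called, and PDGFRB was under 1 RPKM. Endothelial and leukocyte markers were all under 1 RPKM. In bulk RNA, fewer cells of a type and less RNA per cell cannot be told apart.

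Promoter sequence is printed for the 3 main ADP/ATP carriers, which are near relatives with different levels. It is also printed for SLC25A3, which had the most reads of the members, and for SLC25A29, which fell the most. Each is the 250 bases before the RefSeq start on GRCh38.p14, 5′ to 3′ in the direction of the gene. Capitals mark every match on either strand to the 7 motifs searched.
SLC25A4, chr4:185143016-185143265, plus strand: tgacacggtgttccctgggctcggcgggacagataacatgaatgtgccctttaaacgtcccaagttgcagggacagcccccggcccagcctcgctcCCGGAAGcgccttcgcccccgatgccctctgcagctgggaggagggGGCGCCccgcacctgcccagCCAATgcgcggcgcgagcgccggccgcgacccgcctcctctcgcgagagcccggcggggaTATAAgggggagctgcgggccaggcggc
SLC25A5, chrX:119468194-119468443, plus strand: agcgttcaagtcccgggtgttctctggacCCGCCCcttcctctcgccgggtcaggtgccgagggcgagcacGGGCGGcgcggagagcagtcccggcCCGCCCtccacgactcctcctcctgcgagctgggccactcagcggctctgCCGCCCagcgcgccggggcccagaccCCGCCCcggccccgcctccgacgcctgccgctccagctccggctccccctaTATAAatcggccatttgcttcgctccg
SLC25A6, chrX:1392114-1392363, minus strand: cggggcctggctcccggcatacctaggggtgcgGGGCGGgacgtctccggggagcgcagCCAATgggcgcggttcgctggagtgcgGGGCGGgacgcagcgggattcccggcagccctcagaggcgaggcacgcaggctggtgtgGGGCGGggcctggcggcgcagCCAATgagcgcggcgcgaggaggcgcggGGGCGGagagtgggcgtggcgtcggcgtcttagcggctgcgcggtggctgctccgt
SLC25A3, chr12:98593436-98593685, plus strand: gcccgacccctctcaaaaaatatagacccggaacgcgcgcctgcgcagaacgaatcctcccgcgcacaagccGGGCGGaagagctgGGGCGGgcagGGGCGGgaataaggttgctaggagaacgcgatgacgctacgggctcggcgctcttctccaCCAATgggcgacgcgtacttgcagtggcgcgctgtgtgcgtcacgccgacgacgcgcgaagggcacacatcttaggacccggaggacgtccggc
SLC25A29, chr14:100306445-100306694, minus strand: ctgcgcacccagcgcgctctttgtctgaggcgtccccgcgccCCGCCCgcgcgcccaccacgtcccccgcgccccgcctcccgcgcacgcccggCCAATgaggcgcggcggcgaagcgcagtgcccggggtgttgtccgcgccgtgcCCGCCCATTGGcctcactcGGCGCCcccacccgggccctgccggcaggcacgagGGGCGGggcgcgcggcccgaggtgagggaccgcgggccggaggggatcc
The motifs, each searched with its reverse complement, were the TATA box written TATAA, the CCAAT box, the Sp1 box written GGGCGG, an ETS site written CCGGAAG, an ESRRA site written AAGGTCA, and 2 palindromes, NRF1 written CGCATGCG and SMAD1/5 written GGCGCC. SLC25A4 and SLC25A5 each held TATAA, beginning 28 and 27 bases before the start, and SLC25A6 held none. SLC25A6 held 4 matches to GGGCGG and 2 to CCAAT, and SLC25A5 held 5 to GGGCGG. SLC25A4 had no GGGCGG and held CCGGAAG with CCAAT and GGCGCC instead. In SLC25A29 a reversed GGGCGG adjoins a reversed CCAAT. Among all 27305 promoters of this length 19.6% held TATAA, 33.0% CCAAT, 42.3% GGGCGG, 8.8% CCGGAAG, 3.5% AAGGTCA, 1.9% CGCATGCG and 16.1% GGCGCC. Of the 31 tested carriers with an entry, 4 held TATAA, 15 CCAAT, 23 GGGCGG, 7 CCGGAAG and 8 GGCGCC, and the other motifs were in 0. Their median GC content was 70.4%, against 58.0% over all promoters. The full set was not limited to genes at the tested level, as the carriers were, so the 2 sets are not matched. These matches are letters in a window, and binding was not measured.

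Levels of the carriers spanned a wide range. SLC25A6 stood highest at a mean of 193 RPKM over the 6 libraries and SLC25A42 lowest of the tested members, a ratio of 175. In all, 14 members were at 10 RPKM or more, 22 between 1 and 10 RPKM and 11 under 1 RPKM. The ADP/ATP carriers made up 48.7 to 49.8% of the members' summed RPKM in every library. That sum was 668 to 700 RPKM in control and 621 to 658 RPKM in GDF5 libraries. It leaves out family genes outside the symbol rule. Of these UCP2 was at 44.5, MTCH1 at 45.6, MTCH2 at 19.9 and UCP3 at 0.407 RPKM in control. By reads, which are not corrected for length, SLC25A3 came before SLC25A6. The lengths implied by the values were 8896 bases for SLC25A3, 1553 for SLC25A6 and 1555 for SLC25A5. Shares and order by RPKM rest on these lengths. The members took 0.234 to 0.241% of all reads in control and 0.217 to 0.225% in GDF5 libraries. They took 0.256 to 0.262% and 0.242 to 0.251% of the reads that are not from mitochondrial DNA. The groups did not overlap on either base. On RPKM as deposited 30.4% of all tested genes were likewise lower without overlap. Neither base nor the summed RPKM uses median-of-ratios scaling, and whether the groups stay apart with it was not tested.

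**Figure D1:**
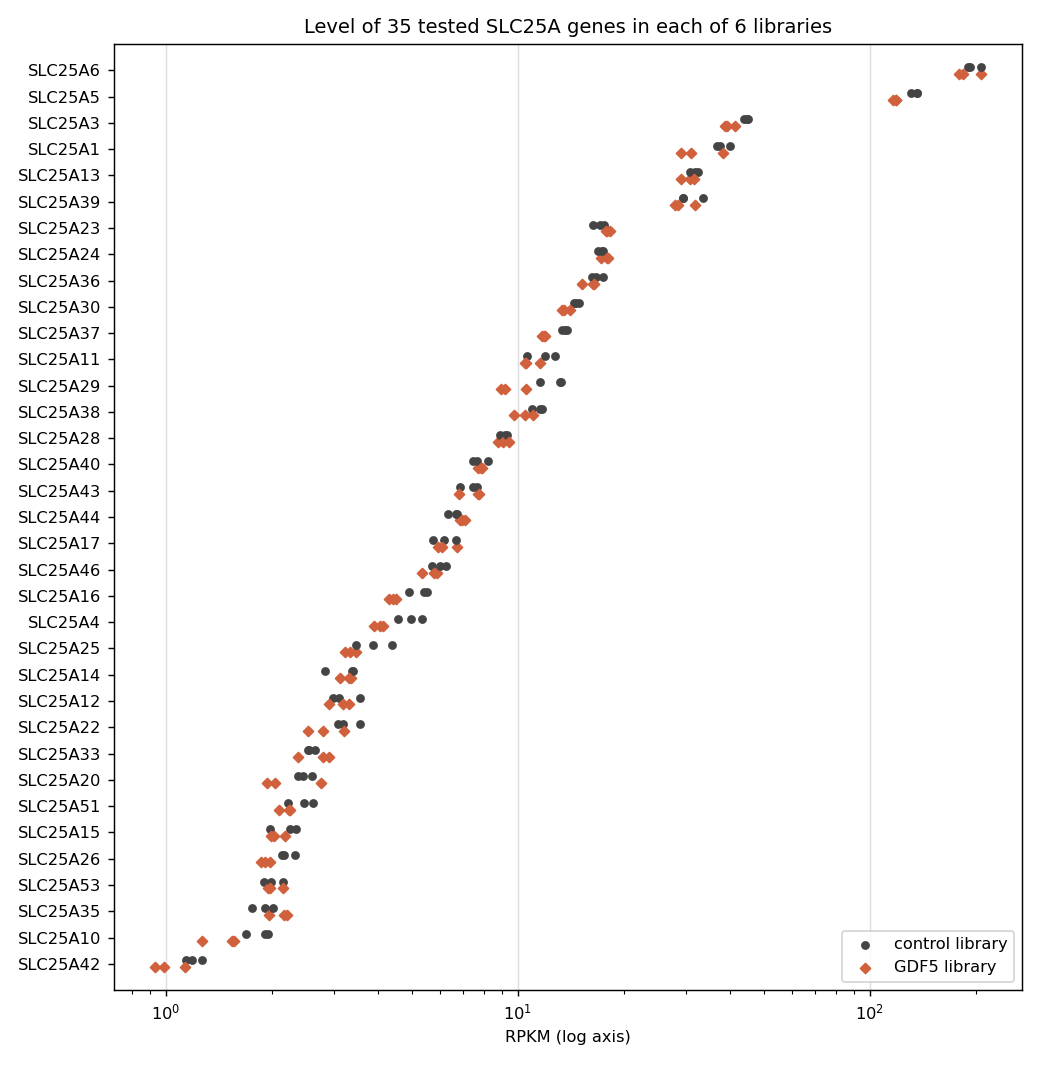
RPKM of 35 of the tested SLC25A genes on a log axis, ordered by mean level, with a grey point for each of 3 control libraries and an orange diamond for each of 3 GDF5 libraries. SLC25A6 and SLC25A5 stand above all others, and for most genes the points of the groups lie among each other.

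With GDF5 6 of the 36 tested carriers fell and 0 rose, at a limma adjusted p under 0.05. The 6 were SLC25A29, SLC25A4, SLC25A16, SLC25A5, SLC25A37 and SLC25A3. Of these SLC25A16 is a candidate coenzyme A carrier, and the others carry basic amino acids, ADP and ATP, iron and phosphate. Changes were small, from -0.37 to -0.17 in log2(RPKM + 1), where the pseudocount of 1 shrinks the changes of low genes. The share of members lower was 16.7%, against 17.5% of all 12476 genes tested, and 7.48% of all genes were higher. A share this near the background is not a result about the family. At an unadjusted p under 0.05 there were 11 members lower and 1 higher, against 27.7% and 11.6% of all genes. The median log2 change of the members was -0.06 and that of all tested genes -0.05, and 26 of 36 members were below 0, against 64.4% of all genes. The groups of 3 libraries did not overlap for 12 members, of which 10 were lower and 2 higher, against 30.4% and 13.5% of all genes.

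The split of calls depended on the scaling of the libraries. Median-of-ratios scaling divided the control libraries by 1.014 to 1.026 and the GDF5 libraries by 0.978 to 0.983. It left 5 members lower and 2 higher, against 10.8% and 12.2% of all genes. Of the 3116 genes called as deposited 29.9% were higher, and of the 2867 called with that scaling 53.2%. The median log2 change of the members was then -0.02 and that of all genes -0.0035, and 23 of 36 members were below 0. SLC25A3 lost its call and SLC25A23 and SLC25A44 gained one. By the adjusted p of the authors' deposited table, 5 of the tested members were lower and 1, SLC25A23, higher, against 9.56% and 12.5% of all genes tested here. SLC25A4 was not called by the authors' deposited table (adjusted p = 0.0508 there).

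**Figure D2:**
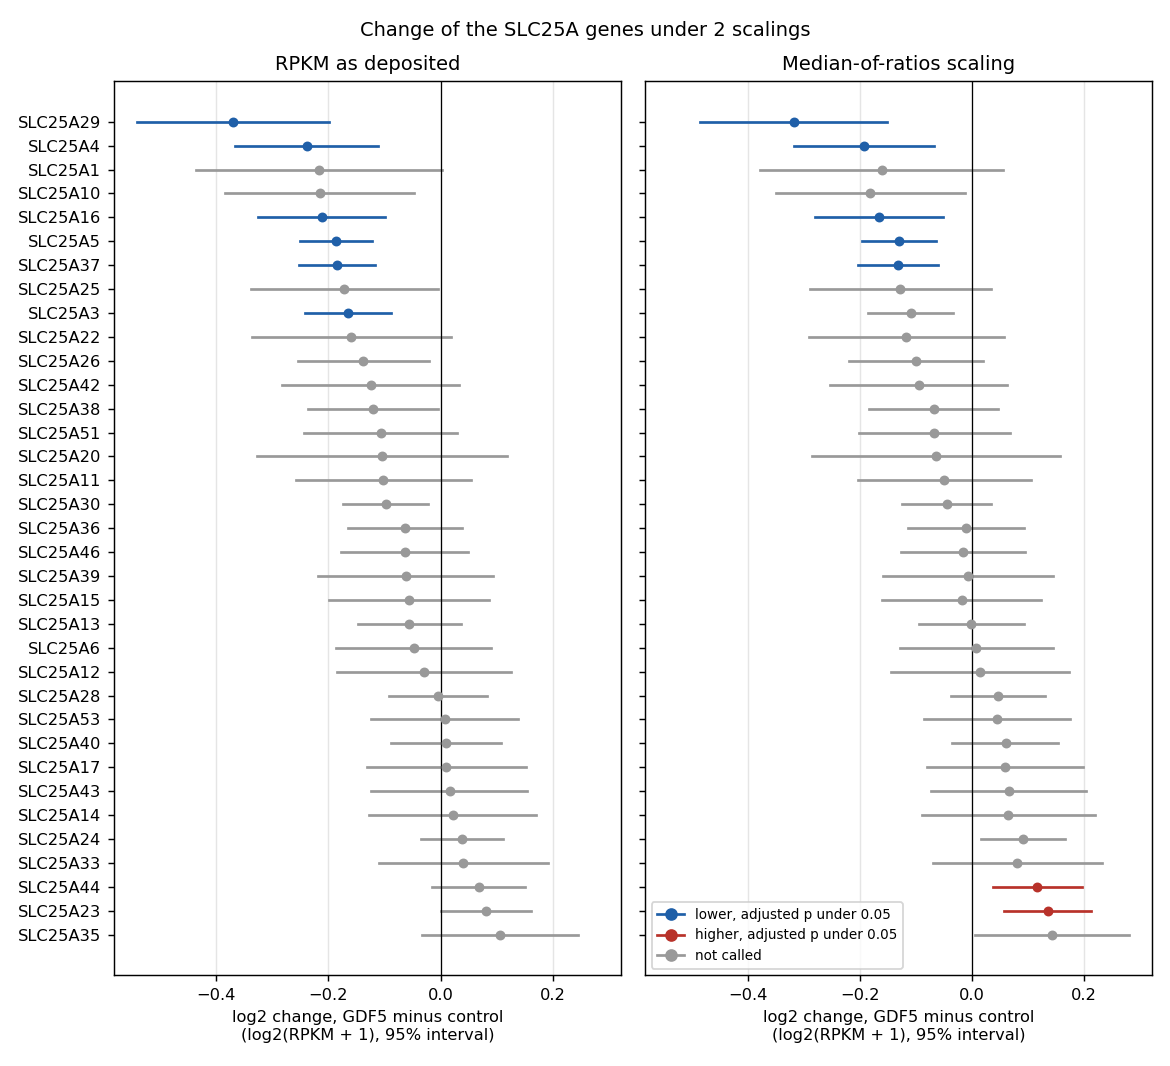
Log2 change of GDF5 minus control for 35 of the tested SLC25A genes, with 95% intervals, from RPKM as deposited (left) and after median-of-ratios scaling (right), with calls at an adjusted p under 0.05 in blue (lower) and red (higher). All values move up together with the scaling, so 6 lower and 0 higher become 5 lower and 2 higher.

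Among the ADP/ATP carriers 2 of 3 tested members fell, against 17.5% of all genes, and 3 genes are too few to compare with that share. These proteins exchange cytosolic ADP for matrix ATP. SLC25A5 (ENSG00000005022, chrX:119468400-119471319), the form known from dividing cells, was at 131, 136 and 136 RPKM in control replicates 1 to 3 and at 116, 118 and 119 RPKM in GDF5 replicates 1 to 3. Every GDF5 library was below every control library. The mean was 134 ± 2.85 RPKM without and 118 ± 1.28 RPKM with GDF5 (SD, n = 3 each), and the gene fell by 0.19 on the log2 scale (SE 0.03, limma adjusted p = 0.0038). It was called in all 16 alternatives, with adjusted p-values of 0.000458 to 0.0464. SLC25A5 also has pseudogene copies in the genome, of which SLC25A5P1 was at 0.274 RPKM, so its value may hold some of their reads or lack shared ones.

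SLC25A4, the form known from heart and muscle, was far lower in level, at 5.33, 4.55 and 4.98 RPKM in control and 4.13, 4.07 and 3.91 RPKM in GDF5 libraries. The groups did not overlap. It fell by 0.24 on the log2 scale (SE 0.05, limma adjusted p = 0.0194, and 0.0040 to 0.0704 over its alternatives). The call ended without control replicate 1 (0.0530) or 3 (0.0564), without GDF5 replicate 2 (0.0581) or 3 (0.0687), without a filter on the level (0.0704), and with the replicate number as a block together with median-of-ratios scaling (0.0667).

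SLC25A6, the form known from most tissues, was at 192, 190.4 and 207 RPKM in control and 207, 184 and 179.8 RPKM in GDF5 libraries. Its groups overlapped, with GDF5 replicate 1 close to the highest control. Its log2 change was -0.05 as deposited and 0.01 after median-of-ratios scaling (limma adjusted p = 0.581 and 0.933), so its sign depended on the scaling. SLC25A31, the form known from testis, had 2 reads in control replicate 1 and 0 in each other library.

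A ratio of a pair of genes in the same library does not move with the scaling. The ratio of SLC25A6 to SLC25A5 was 1.47, 1.40 and 1.53 in control and 1.77, 1.56 and 1.51 in GDF5 libraries. The groups overlapped, and the log2 difference of 0.14 did not pass an exact permutation test (p = 0.2, two-sided, adjusted p = 0.5 over 10 pairs). SLC25A5 held 39.0 to 41.1% of the RPKM of the ADP/ATP carriers in control and 35.6 to 39.3% in GDF5 libraries.

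Of 4 tested carriers of phosphate or ATP-Mg 1 fell, against 17.5% of all genes. SLC25A3 (ENSG00000075415, chr12:98593591-98606379) brings phosphate into the matrix for ATP synthesis and also carries copper. It was at 44.0, 44.9 and 45.1 RPKM in control and 41.3, 38.8 and 39.2 RPKM in GDF5 libraries. All GDF5 values lay below all control values. The fall was -0.17 in log2 units (SE 0.03, limma adjusted p = 0.0117, and 0.00101 to 0.117 over its alternatives). The call ended with median-of-ratios scaling (log2 change -0.11, adjusted p = 0.0506), with that scaling and the replicate number as a block (0.117), and without GDF5 replicate 2 (0.0506).

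The ATP-Mg/phosphate carriers SLC25A23, SLC25A24 and SLC25A25 bind calcium at their cytosolic end. SLC25A23 was at 17.1, 16.4 and 17.5 RPKM in control and 17.9, 18.3 and 17.9 RPKM in GDF5 libraries. Its groups did not overlap, with GDF5 higher. As deposited its log2 change was 0.08 (SE 0.03, limma adjusted p = 0.123), and after median-of-ratios scaling it was 0.14 and called (0.0258). SLC25A24 was at 17.4, 17.3 and 16.9 RPKM in control and 17.2, 17.9 and 18.0 RPKM in GDF5 libraries, with overlapping groups and no call (0.399). SLC25A25 went from 3.92 ± 0.468 to 3.35 ± 0.123 RPKM (SD, n = 3 each), with a log2 change of -0.17 (limma adjusted p = 0.118). It was called without control replicate 2 (-0.24, 0.0441) and with limma-voom on recovered reads (0.0397), and without control replicate 3 its log2 change was -0.10 (0.257). Other genes overlap 16.2% of the exon length of SLC25A25 on the opposite strand. SLC25A41, which lacks the calcium-binding part, had 7, 6 and 8 reads in control and 1, 3 and 0 reads in GDF5 libraries, below the tested level.

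**Figure D3:**
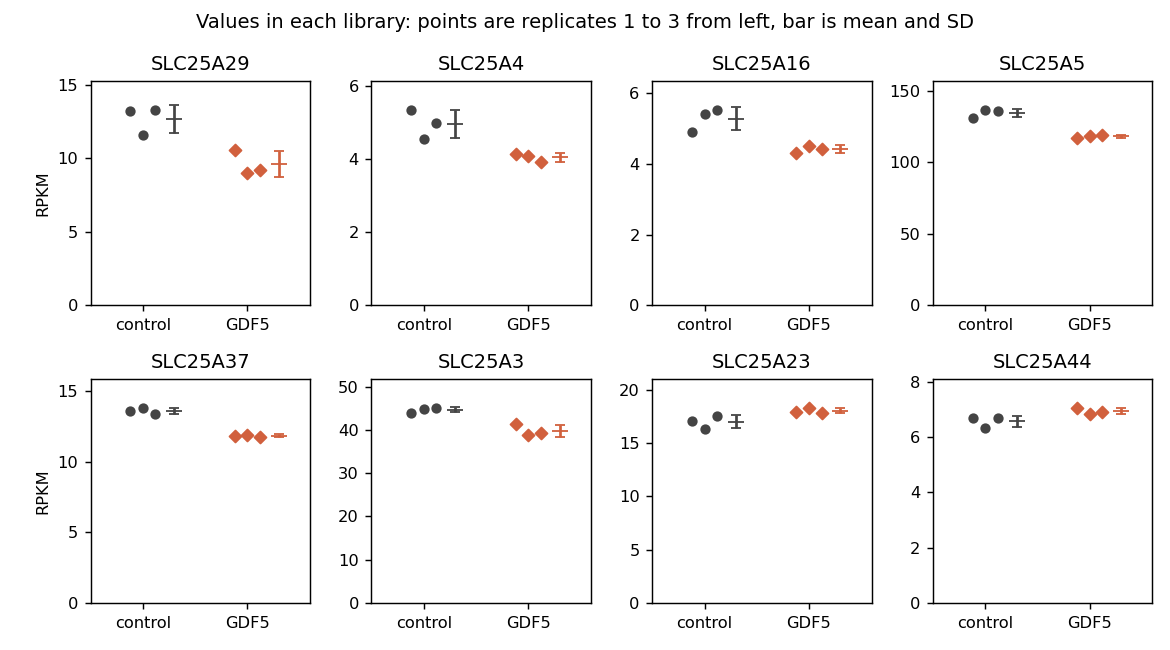
RPKM in each library for the 6 SLC25A genes that fell and for SLC25A23 and SLC25A44, with points for replicates 1 to 3 from left in each group and a bar for the mean and SD (n = 3), each panel starting at 0. The GDF5 points lie wholly below the control points in the 6 panels of genes that fell and wholly above them for SLC25A23 and SLC25A44.

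Of the 4 tested aspartate, glutamate and malate carriers none was called by limma at an adjusted p under 0.05. SLC25A13 (citrin), which carries aspartate out of mitochondria in exchange for glutamate, was the highest at 32.6, 31.9 and 30.8 RPKM in control and 29.1, 30.8 and 31.6 RPKM in GDF5 libraries. Its groups overlapped and the log2 change was -0.06 (0.331). Its paralog SLC25A12 was at 3.22 ± 0.311 and 3.13 ± 0.206 RPKM (SD, n = 3 each). The oxoglutarate and malate carrier gene SLC25A11 was at 11.8 ± 1.05 and 10.9 ± 0.616 RPKM, and 9.14% of its exon length is overlapped on the opposite strand by RNF167. The glutamate carrier gene SLC25A22 had a log2 change of -0.16 (0.163).

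Neither tested carrier of citrate or dicarboxylates was called. SLC25A1, which exports citrate for fatty acid and sterol synthesis, was at 37.5, 36.7 and 40.1 RPKM in control and at 38.3, 29.2 and 31.0 RPKM in GDF5 libraries. GDF5 replicate 1 lay among the controls and the other two below them. Over all 3 the log2 change was -0.22 (limma adjusted p = 0.131). Without GDF5 replicate 1 it was -0.33 and called (0.00524), and it was called with limma-voom on recovered reads (0.0303). SLC25A10, the dicarboxylate carrier, had a log2 change of -0.22 with groups that did not overlap (limma adjusted p = 0.0662), and 46.6% of its exon length is shared with another gene on the same strand, so its value is uncertain.

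SLC25A29 fell the most of all tested carriers. It carries arginine, lysine and other basic amino acids into mitochondria. SLC25A29 (ENSG00000197119, chr14:100291111-100306547) was at 13.2, 11.6 and 13.2 RPKM in control and at 10.6, 8.96 and 9.17 RPKM in GDF5 libraries. All GDF5 values lay below all control values. The mean was 12.7 ± 0.957 RPKM without and 9.57 ± 0.879 RPKM with GDF5 (SD, n = 3 each), and the gene fell by 0.37 on the log2 scale (SE 0.07, limma adjusted p = 0.0117, and 0.000104 to 0.0548 over its alternatives). The call ended without a filter on the level (0.0548) and held with median-of-ratios scaling (0.0193). SLC25A20, which carries acylcarnitines for fatty acid oxidation, was at 2.48 ± 0.113 and 2.25 ± 0.446 RPKM and was not called (0.452). Without GDF5 replicate 1 its log2 change was -0.21 and called (limma adjusted p = 0.0414).

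The ratio of SLC25A20 to SLC25A29 was 0.187, 0.205 and 0.196 in control and 0.261, 0.217 and 0.223 in GDF5 libraries. The groups did not overlap, and the log2 difference was 0.25 (exact permutation p = 0.1, the smallest that 3 against 3 can give, adjusted p = 0.5). The ornithine carrier gene SLC25A15, of the urea cycle, was not called (limma adjusted p = 0.525), and SLC25A2 was close to 0.

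Of the 2 mitoferrins, which bring iron into mitochondria for haem and iron-sulfur clusters, 1 fell, against 17.5% of all genes. SLC25A37, mitoferrin 1, was at 13.6, 13.8 and 13.4 RPKM in control and 11.8, 11.9 and 11.7 RPKM in GDF5 libraries. The groups were tight and did not overlap. It fell by 0.18 on the log2 scale (SE 0.03, limma adjusted p = 0.0050, and 0.000685 to 0.0602 over its alternatives). That call ended with the replicate number as a block together with median-of-ratios scaling and with no other alternative. SLC25A28, mitoferrin 2, was at 9.14 ± 0.188 and 9.10 ± 0.337 RPKM, with overlapping groups. It was not called, and its log2 change of -0.01 as deposited became 0.05 after median-of-ratios scaling.

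The ratio of SLC25A28 to SLC25A37 was 0.676, 0.647 and 0.695 in control and 0.742, 0.760 and 0.806 in GDF5 libraries. It was higher in every GDF5 library, with a log2 difference of 0.19 (exact permutation p = 0.1, adjusted p = 0.5). Of 13 listed pairs of related carriers 10 could be tested, and this pair and SLC25A20 with SLC25A29 were the 2 whose groups did not overlap.

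**Figure D4:**
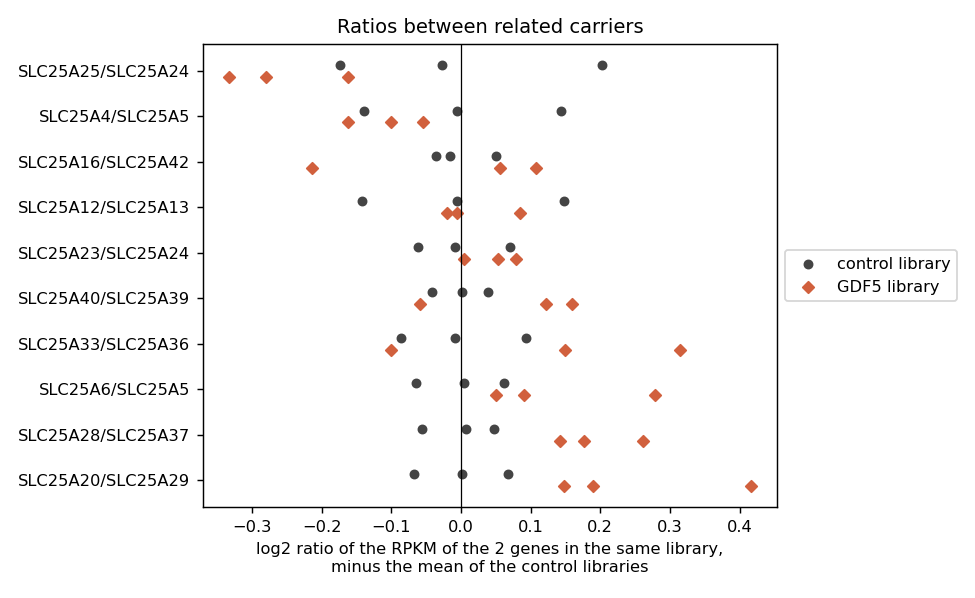
Log2 ratio of the RPKM of paired carriers in the same library, minus the mean of the control libraries, for 10 pairs, with grey points for control and orange diamonds for GDF5 libraries. The GDF5 points lie wholly above the control points for SLC25A28/SLC25A37 and SLC25A20/SLC25A29 and among or beside them for the other pairs.

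None of the 4 carriers of other amino acids and glutathione was called by limma on RPKM as deposited. SLC25A39, a glutathione carrier, was the highest at 29.4, 29.4 and 33.6 RPKM in control and 31.8, 28.0 and 28.5 RPKM in GDF5 libraries. Its groups overlapped, and so did those of its paralog SLC25A40. SLC25A38, which carries glycine for haem synthesis, had a log2 change of -0.12 (0.117). SLC25A44, a carrier of branched-chain amino acids, was at 6.58 ± 0.200 and 6.94 ± 0.112 RPKM (SD, n = 3 each) with groups that did not overlap. Its log2 change was 0.07 (limma adjusted p = 0.199), and 0.12 and called with median-of-ratios scaling (0.0468).

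Of 8 tested carriers of cofactors and nucleotides 1 fell, against 17.5% of all genes. SLC25A16 (ENSG00000122912, chr10:68477999-68527474), a candidate coenzyme A carrier, was at 4.89, 5.42 and 5.51 RPKM in control and 4.30, 4.52 and 4.42 RPKM in GDF5 libraries. The groups did not overlap. It fell by 0.21 on the log2 scale (SE 0.05, limma adjusted p = 0.0196, and 0.00231 to 0.0661 over its alternatives). The call ended without control replicate 2 (0.0591) or 3 (0.0590), without GDF5 replicate 2 (0.0508) or 3 (0.0613), without a filter (0.0661), and with the replicate number as a block together with median-of-ratios scaling (0.0659).

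The other 7 were not called. SLC25A36, a carrier of pyrimidine nucleotides, was the highest at 17.5, 16.6 and 16.2 RPKM in control and 15.2, 16.3 and 16.5 RPKM in GDF5 libraries, with overlapping groups (limma adjusted p = 0.318). SLC25A26, of S-adenosylmethionine, and SLC25A42, of coenzyme A, had groups that did not overlap, with GDF5 lower (0.0839 and 0.211). The groups of SLC25A17, of peroxisomes, SLC25A33, of pyrimidine nucleotides, and SLC25A51, of NAD, overlapped. SLC25A32, the folate carrier, was under 1 RPKM, and 69.7% of its exon length is shared with another gene on the same strand, so its low value is uncertain.

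The uncoupling-like carrier gene SLC25A30, named for its kidney expression, was at 14.4, 14.9 and 14.7 RPKM in control and 13.4, 14.1 and 13.5 RPKM in GDF5 libraries. Every GDF5 value lay below every control value, and the log2 change was -0.10 (limma adjusted p = 0.064). SLC25A14 had a log2 change of 0.02 and SLC25A27 was under 1 RPKM. Of the others SLC25A35, SLC25A43, SLC25A46 and SLC25A53 were tested and not called. SLC25A35 had the largest log2 change above 0, at 0.11 (0.228). On the opposite strand 33.2% of its exon length is overlapped by RANGRF, which was at 0.355 RPKM. Besides those named above, SLC25A18, SLC25A21, SLC25A34, SLC25A45, SLC25A47 and SLC25A48 were under 1 RPKM.

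GDF5 replicate 1 was the highest of its group in 20, the middle in 3 and the lowest in 13 of the 36 tested carriers, against 37.2%, 22.4% and 40.4% of all genes. Without it 8 of the 36 carriers were lower and 0 higher, against 17.3% and 7.53% of all genes. The share of reads from mitochondrial DNA was higher in the GDF5 libraries, as given above. With those genes left out of the totals 6 carriers were still lower and 1, SLC25A23, was higher (limma adjusted p = 0.0499), against 13.3% and 9.47% of all genes in that fit.

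Around the carriers, 8 lists of genes were counted in the same fit. Of 51 tested genes 3 were higher and 9 lower, which is 5.88% and 17.6%, against the 7.48% and 17.5% of all genes given above. With median-of-ratios scaling 5 were higher and 6 lower, against 12.2% and 10.8% of all genes. PPARGC1A, a coactivator of mitochondrial biogenesis, was at 3.34, 3.58 and 3.13 RPKM in control and 5.37, 5.62 and 5.42 RPKM in GDF5 libraries. It rose by 0.57 on the log2 scale (limma adjusted p = 0.000374), alone among 6 tested regulators of that list. In the iron-sulfur and haem list ISCU, the scaffold for iron-sulfur clusters, fell from 14.0 ± 0.276 to 10.3 ± 0.111 RPKM (0.000236) and the other 5 were not called.

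Among other channels and carriers of the mitochondrial membranes 1 of 10 rose and 2 fell, against 7.48% and 17.5% of all genes. VDAC1, the outer membrane pore, rose by 0.16 (limma adjusted p = 0.018), MPC2, of the pyruvate carrier, fell by 0.34 (0.00628) and SFXN3, a serine carrier, fell by 0.21 (0.0105). Of 10 genes that import carriers into the inner membrane TIMM29, a part of the TIM22 complex, fell by 0.33 (0.0183) and 9 were not called. Of 9 enzymes of the malate-aspartate and citrate routes 1 rose and 3 fell, against the same shares of all genes. The mitochondrial malate dehydrogenase gene MDH2 rose by 0.24 (0.0081) and its cytosolic counterpart MDH1 fell by 0.15 (0.0137), a call that ended with median-of-ratios scaling (0.0633). IDH2 fell by 0.19 (0.00996). IDH1, named after its values were seen, fell by 0.20 (0.0454), and that call also ended with the scaling (0.112).

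Of 5 tested folate enzymes SHMT1, the cytosolic serine hydroxymethyltransferase, fell by 0.33 (limma adjusted p = 0.000965). In the carnitine list CRAT and CPT1A were tested and neither was called (0.902 and 0.767). Of 3 other genes of the family outside the symbol rule MTCH2, an outer membrane insertase, fell by 0.12 (0.040), a call that ended with median-of-ratios scaling (0.199).

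**Figure D5:**
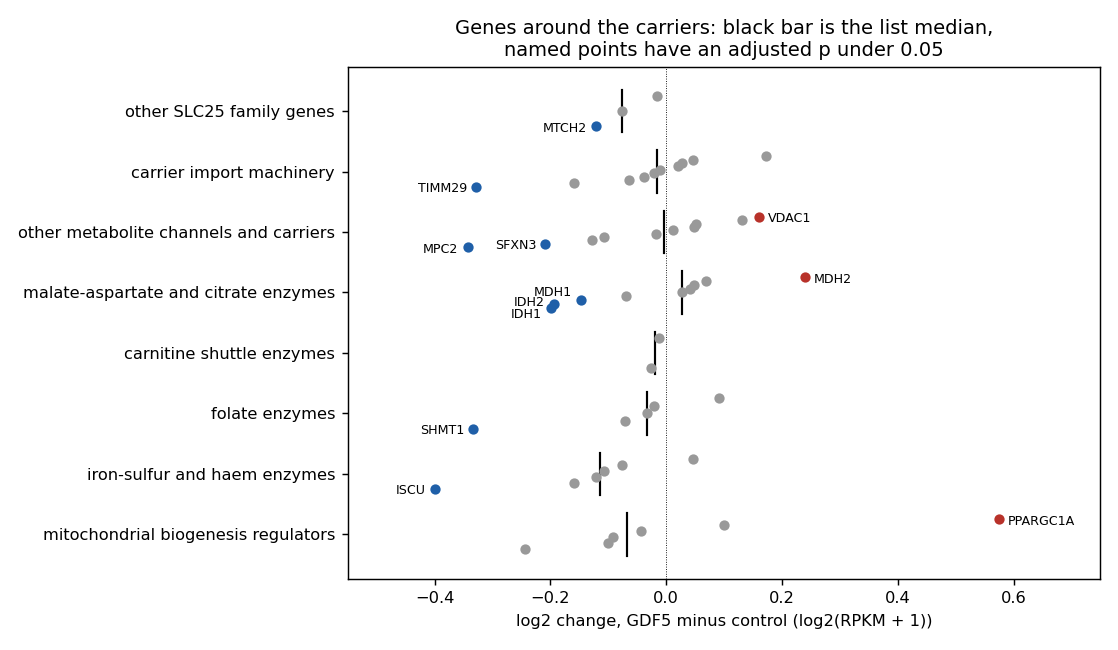
Log2 change of GDF5 minus control for the 51 tested genes of 8 lists around the carriers, with the list median as a black bar and calls at an adjusted p under 0.05 named, in blue (lower) or red (higher). PPARGC1A stands apart to the right at 0.57, and most list medians lie near 0.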

How the data were processed

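RNA of 6 libraries was sequenced; groups and replicate numbers were read from the titles, and dose and time from the series design. The authors used HISAT2 with DESeq2 on GRCh38, per the submitters' processing notes; no counter or annotation is named in those sources. The deposited values per library are RPKM, as the values show. Per the file headers, the authors also gave a mean signal per group, a log2 fold change, a p-value and an adjusted p-value. Per the labels' protocols the libraries are strand-specific, but whether counting used strand is not stated.

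Reads were recovered from the RPKM steps and the authors' group means. Of 37496 values under 20 reads, 100% were whole within 0.1. Of these values 61.4% were even, and whether reads were counted singly or in pairs was not tested. Implied lengths were within 5% of GENCODE 29 for 40 of the 47 members. Coordinates and overlaps are from GENCODE 29 on GRCh38, and promoters from RefSeq on GRCh38.p14 (31 of 36 tested members matched).

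Genes with a mean of at least 1 RPKM over the 6 libraries (12476) were compared on log2(RPKM + 1) with limma 3.58.1 in R 4.3.3, with a variance trend and no block, two-sided, Benjamini-Hochberg adjusted over all of them and called under 0.05. Bare p-values in brackets are these adjusted p-values, and fold intervals are at 95%. The test was first tested on simulated data with a common spread for all genes and equal numbers of rises and falls. The calls here are not split evenly as deposited, so the simulation does not bear on the scaling. Ratios of paired carriers were compared by exact permutation tests. Named genes were all members, with per-library values for called members and the 10 highest, and up to 3 called genes per surrounding list. The members and lists were chosen with earlier results of these data known. Alternatives changed the pseudocount, filter, scaling, variance trend, block, threshold, libraries and test (limma-voom, and the authors' own p-values). For single genes, the ranges of adjusted p and the lists of ended calls cover the refits only. The stricter threshold and the authors' p-values are not among them. SLC25A52 was not analysed here. The values of 1 tested member are not reported here and it is left out of the figures; it stays in all counts.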

Additional observations from a re-analysis of the deposited data

How the results depend on the processing

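On RPKM as deposited 6 carriers were lower and 0 higher, against 17.5% and 7.48% of all genes. The lower count was 3 with no filter, 2 at an adjusted p under 0.01, 3 to 8 when each library was left out in turn, 8 with no variance trend and 9 with limma-voom on recovered reads. It was 3 without GDF5 replicate 2, which left SLC25A4, SLC25A16 and SLC25A3 without a call. The higher count was 2 with median-of-ratios scaling, 2 with limma-voom and that scaling, 1 with mtDNA genes left out of the totals and 1 by the authors' adjusted p in the deposited table. Of all genes 12.2% were higher with median-of-ratios scaling, 9.47% with mtDNA genes left out and 12.5% by the authors' adjusted p. With a replicate block 6 were lower and 0 higher, and with the block and median-of-ratios scaling, a setting chosen after seeing the data, 2 were lower and 0 higher. Of all genes 17.3% were lower without GDF5 replicate 1. For the other settings the share of all genes called was not counted, so these shifts may not be particular to the carriers. Same-numbered libraries correlated at -0.037, 0.057 and -0.031 in their deviations, and differently numbered ones at -0.0565 to 0.0732. These values show no shared variation by number, but with 3 libraries a group they cannot show that the libraries were not paired. The cause of these shifts was not tested beyond what each setting changes. No called log2 change changed sign. Over all values and settings 517 stayed within their limits, 26 moved, 13 gained a call and 17 lost one. With 3 libraries a group, small changes such as those of SLC25A35 or SLC25A1 have wide intervals, and a missed threshold does not show that a carrier was unaffected.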
